A study of Mus musculus with 36 samples.

Results

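The hippocampus was compared on either side of lights-off, between ZT9 in the light phase and ZT13 in the dark phase, circRNA by circRNA and host gene by host gene. The members are, by their labels, the hippocampus samples taken at clock hour 15 (ZT9) and clock hour 19 (ZT13), which are 6 of the 36 samples of the series. In the study, total RNA depleted of ribosomal RNA was sequenced from the hippocampus and frontal cortex at 6 time points of a day, with 3 replicates per time point and tissue. Both groups were adult male C57BL6/N mice, without treatment or transgene, kept with lights on from clock hour 6 to clock hour 18. The animals were perfused and the whole hippocampus was snap-frozen, and each time point came from different animals. Cdr1as, the most abundant circRNA of these samples, is given here only for reference, and the comparison is about every other circRNA. It stays in the fits and in the counts over all tested circRNAs and host genes, where it is among the lower ones at an unadjusted p under 0.05.

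A circRNA is a closed loop of exons that forms when the end of a later exon is spliced back to the start of an earlier one. Loops lack free ends, are long-lived, and are abundant in neurons, where many come from genes of synapses, signalling and chromatin. The read that crosses the backward junction is what identifies a loop, and all values here count such circular reads.

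The 6 libraries differed in depth, and ZT13 replicate 1 stood apart. Over all circRNAs listed, the replicates of ZT9 had 18466, 20286 and 20452 circular reads, and those of ZT13 had 6754, 23757 and 16740. A circRNA was kept when 2 or more replicates of a time point held it, which left 5505 in the hippocampus, and 582 of them had enough reads to be tested. Of the 582, ZT13 replicate 1 had no read for 171 (29.4%), whereas the other libraries had none for between 6 and 20. The median count of a tested circRNA was 4 in ZT13 replicate 1 and between 9 and 12 in the others. Junctions that did not lie at an annotated exon end on both sides made up 20.6% of the reads of ZT13 replicate 1 and between 13.8% and 16.1% in the others.

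Some abundant loops were wholly missing from that library. Dlgap1, a scaffold of the postsynaptic density, had 85, 92 and 78 circular reads over all its loops at ZT9 and 0, 100 and 75 at ZT13. The level in the other 5 libraries, scaled to the depth of ZT13 replicate 1, would put 33.1 reads there. Kcnt2, a sodium-activated potassium channel, had 39, 60 and 60 reads at ZT9 and 0, 44 and 43 at ZT13. Pcmtd1 had 45, 53 and 29 reads at ZT9 and 0, 46 and 53 at ZT13. These genes were picked after their values were seen. Of 97 circRNAs that the other libraries would put at 10 reads or more in ZT13 replicate 1, 15 (15.5%) had no read there, against between 0.439% and 1.47% in each of the other libraries by the same rule. The leading values below are therefore given with and without ZT13 replicate 1, and its part in the others was not tested.

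The tissue label was checked on marker genes that gave circular reads. Of 12 markers of hippocampal neurons 5 had circular reads, led by the channel gene Trpc6 with 189 reads. Per 10000 circular reads the summed hippocampal markers stood at 42.0, 49.4 and 34.3 at ZT9 and at 55.9, 49.7 and 52.3 at ZT13, and their mean over the 6 samples was 47.3 ± 7.83 (SD), against 20.2 ± 6.56 (SD) in the 6 frontal cortex samples of the same times. Wfs1, Calb1, Spock1, Dsp, Neurod1, Lct and C1ql2 had none. Cortical markers gave 13.6, 9.55 and 12.7 at ZT9 and 15.7, 10.1 and 11.6 at ZT13, with 3 of 10 genes detected, Tshz2 first with 92 reads, and with Tbr1, Cux2, Fezf2, Lamp5, Rorb and Foxp2 among those at 0. Their mean was 12.2 ± 2.30 (SD) over the 6 hippocampus samples and 9.85 ± 6.03 (SD) in the frontal cortex, so cortical markers did not set the tissues apart. Pde10a was the 1 of 7 striatal markers detected (6 reads), Erbb4 the 1 of 8 inhibitory markers (6 reads), St18 the 1 of 12 oligodendrocyte markers (2 reads) and Gpc5 the 1 of 10 astrocyte markers (8 reads). Gpc5 had 2, 3 and 3 reads at ZT9 and none at ZT13, Pde10a had 3, 3 and 0 and then none, and the reads of Erbb4 and St18 were all at ZT13. None of the 5 thalamic, 8 microglial, 6 endothelial and 6 choroid plexus markers had a circular read. Most of these markers are not known to form loops, so these counts say little of how many cells of a type were present, and fewer cells of a type and less RNA per cell cannot be told apart.

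Beyond Cdr1as, the loops with the smallest unadjusted p that were lower after lights-off included those of Smarca1 and Pclo. Among the higher ones were those of Tasp1 and Rere. The Rere loop had a log2 fold change of 1.16, and of 0.77 without ZT13 replicate 1 (unadjusted p 0.0149 and 0.0904 from edgeR). None of these loops passed the adjustment over all circRNAs. With edgeR, 0 of 582 circRNAs (0.0%) had an adjusted p under 0.05, and 58 (9.97%) had an unadjusted p under 0.05, of which 23 (3.95%) were higher at ZT13 and 35 (6.01%) lower. In 30 circRNAs (5.15%) all ZT13 samples were above all ZT9 samples, and in 44 (7.56%) all were below. The lean towards lower at an unadjusted p under 0.05 was smaller under other scalings. There were 28 higher and 30 lower under scaling to total reads, and 27 and 28 under DESeq2's size factors. The cause of the lean was not tested. DESeq2 also gave 0 adjusted calls, with 163 of 5503 circRNAs (2.96%) at an unadjusted p under 0.05. With only the 6 samples of ZT9 and ZT13 in the edgeR fit, 14 of 306 circRNAs had such a p, 7 higher and 7 lower. That fit had 1 adjusted call, a Gm26917 junction. Without ZT13 replicate 2, edgeR gave 2 adjusted calls, both lower at ZT13, for a loop of Atad2b and one of Prdm2.

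Without ZT13 replicate 1 the adjusted count was again 0 with edgeR, of 669 circRNAs tested (0.0%). An unadjusted p under 0.05 was then found for 47 (7.03%), 18 of them (2.69%) higher and 29 (4.33%) lower, and DESeq2 gave 0 adjusted calls and 102 unadjusted ones. The lists with and without that library shared 31 circRNAs, which is 53.4% of the 58 and 66.0% of the 47. Of the shared ones 24 were lower at ZT13 and 7 higher. All 58 kept their direction when the library was left out, which is a weak statement, since the other 5 samples are common to both fits. Of the 35 lower circRNAs, 19 (54.3%) had no read in ZT13 replicate 1, and 10 of these 19 were among the 24 that kept an unadjusted p under 0.05 without it. Of the 23 higher ones none was at 0 there, and 7 kept such a p. The median log2 fold change over all 582 was -0.07 with the library and -0.01 without it.

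**Figure D1:**
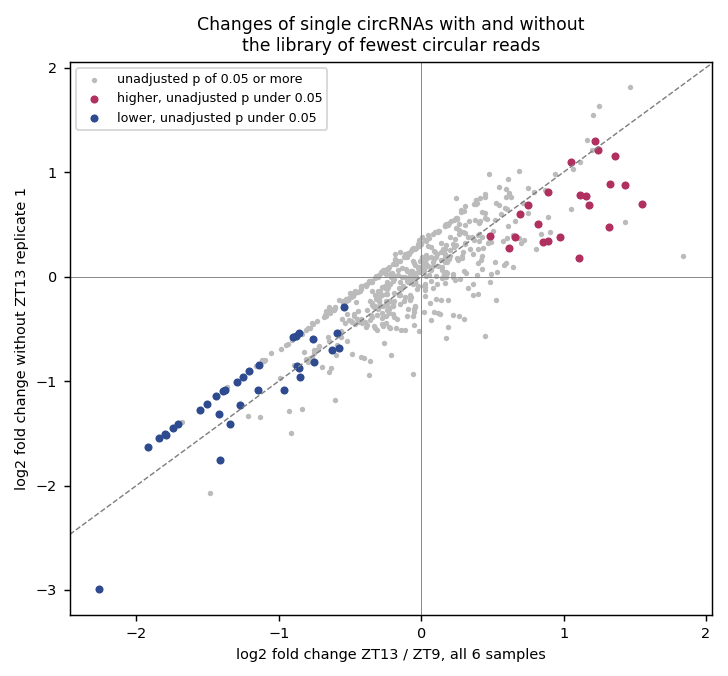
Log2 fold change of each tested circRNA from ZT9 to ZT13 with all 6 samples (x axis) and without ZT13 replicate 1 (y axis), with a dashed line of equal values and coloured points for an unadjusted p under 0.05. Of 582 circRNAs 579 are drawn and 3 lie beyond a log2 of 4 in size, and the higher circRNAs sit mostly under the dashed line, closer to 0 on the y axis.

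Smarca1 is the ATPase of an ISWI chromatin remodeler. Its loop of exons 2 to 23 (chromosome X, 47811158 to 47887198, 2946 nt) takes in nearly the whole transcript of 24 exons, and it had normalized reads, counts scaled so that libraries are comparable, of 13.5, 13.4 and 16.7 at ZT9 and 7.96, 3.05 and 0 at ZT13. The groups did not overlap, and its log2 fold change was -2.26 with a standard error of 0.63 (p 0.00157 unadjusted, adjusted p 0.305 from edgeR). Leaving out ZT13 replicate 1 moved it to -2.99 with an unadjusted p of 0.000273, since that replicate was the highest of the 3. Pclo encodes piccolo, a giant scaffold of the presynaptic active zone, and its loop is the single exon 3 (chromosome 5, 14539410 to 14540801, 1392 nt). It stood at 14.7, 22.3 and 23.9 normalized reads at ZT9 and at 0, 7.12 and 11.1 at ZT13. Again no ZT13 sample reached the lowest ZT9 sample, and the log2 fold change of -1.51 (unadjusted p 0.00348) became -1.22 (unadjusted p 0.00597) without ZT13 replicate 1.

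Eif4e3, a cap-binding protein of the eIF4E family, had 35.6, 25.7 and 27.5 normalized reads of its loop of exons 2 to 6 at ZT9 and 15.9, 18.3 and 13.9 at ZT13. The 3 values of ZT13 lay close together and below ZT9, and the log2 fold change was -0.86 with all samples and -0.87 without ZT13 replicate 1 (unadjusted p 0.00457 and 0.00469). Atrnl1, an attractin-like transmembrane protein, showed an equally even picture for its loop of exons 22 to 26, with 24.5, 22.3 and 23.9 at ZT9 and 15.9, 13.2 and 11.1 at ZT13. Its log2 fold change was -0.85 (unadjusted p 0.00971) and -0.96 without ZT13 replicate 1 (unadjusted p 0.00590). Strbp, a binder of double-stranded RNA, had the most reads among the lower circRNAs, with 72.4, 61.5 and 93.2 normalized reads at ZT9 and 42.4, 55.9 and 49.9 at ZT13. Its junction has 1 of its ends at an annotated exon end, and its log2 fold change was -0.59 with the library and -0.54 without it.

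For 4 of the 10 lower circRNAs ZT13 replicate 1 had no read. They are the Pclo loop, Zfp644 exons 3 to 5, Fut8 exons 3 to 4 and Atad2b exons 13 to 22. Zfp644, a zinc finger protein, had 15.9, 17.9 and 17.9 normalized reads at ZT9 and 0, 8.13 and 8.32 at ZT13, so the other 2 replicates of ZT13 were also below ZT9 (log2 fold change -1.38, and -1.09 without the library). Fut8, the enzyme of core fucosylation, had 22.1, 33.5 and 21.5 at ZT9 and 0, 15.3 and 12.5 at ZT13, again without overlap. Atad2b, an AAA ATPase with a bromodomain, was uneven in both groups, with 23.3, 10.1 and 32.3 at ZT9 and 0, 13.2 and 0 at ZT13, and its groups overlapped. Its log2 fold change of -1.84 ran from -7.42 to -1.29 as single samples were left out, and without ZT13 replicate 2 its adjusted p was 0.0159 from edgeR. The Prdm2 loop of exons 7 to 8, from a gene of the PRDM family, had counts of 12, 12 and 6 at ZT9 and of 0, 8 and 0 at ZT13, and its adjusted p without ZT13 replicate 2 was 0.0495 from edgeR. It had too few reads to be tested with all samples. Pde5a, a phosphodiesterase of cyclic GMP, overlapped as well, with 13.5, 29.1 and 5.98 at ZT9 and 5.30, 7.12 and 6.94 at ZT13 (-1.27, and -1.23 without the library). Its difference rests on ZT9 replicate 2, without which the log2 fold change was -0.59 with an unadjusted p of 0.264.

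All 10 lower circRNAs had an unadjusted p under 0.05 without ZT13 replicate 1 too, with log2 fold changes between -2.99 and -0.54. Their adjusted p-values from edgeR with all samples were between 0.305 and 0.493. In 8 of the 10 the groups did not overlap, and 9 of the 10 had both junction ends at annotated exon ends.

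Tasp1, a threonine protease that cleaves the histone methyltransferase MLL and the transcription factor TFIIA, had the smallest p among the higher circRNAs with reads in at least 4 of the 6 samples. Its loop of exons 2 to 4 (chromosome 2, 140042094 to 140057499, minus strand, 350 nt) had 11.0, 12.3 and 16.7 normalized reads at ZT9 and 47.7, 24.4 and 22.2 at ZT13. All 3 ZT13 samples were above ZT9, with ZT13 replicate 1 far above the rest. It had a log2 fold change of 1.12 (SE 0.34, with an unadjusted p of 0.00323 and an adjusted p of 0.405 from edgeR), and of 0.78 without ZT13 replicate 1 (unadjusted p 0.0198). Mean levels were 13.4 ± 2.99 and 31.4 ± 14.2 (SD, n = 3 each), and 23.3 at ZT13 without that replicate.

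Ksr2 encodes a scaffold of the MAP kinase cascade, and its loop of exons 2 to 3 had 24.5, 27.9 and 12 at ZT9 and 39.8, 40.7 and 29.1 at ZT13. Here ZT13 replicate 1 was in the middle of its group, and the log2 fold change was 0.75 with it and 0.69 without it (unadjusted p 0.0192 and 0.0340). The Ksr2 value fell to 0.41 without ZT9 replicate 3 and to 0.57 without ZT13 replicate 2 (unadjusted p 0.181 and 0.119 from edgeR). Psd3, an exchange factor for the small GTPase Arf6 found at the postsynapse, had 14.7, 6.70 and 7.17 at ZT9 for exons 2 to 5 and 15.9, 16.3 and 26.4 at ZT13. Its groups came close without overlapping, and its log2 fold change was 1.05 and 1.10 without the library (unadjusted p 0.0239 and 0.0223). The Psd3 value fell to 0.72 without ZT13 replicate 3 (unadjusted p 0.163 from edgeR). Of the 10 higher circRNAs 4 kept an unadjusted p under 0.05 without ZT13 replicate 1, those of Tasp1, Ksr2 and Psd3 among them.

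In the other 6 that library was the highest sample, and the p without it was above 0.05. Rere, a corepressor of the atrophin family, had 12.3, 7.82 and 8.37 normalized reads of exons 5 to 11 at ZT9 and 37.1, 15.3 and 18 at ZT13. Its log2 fold change of 1.16 became 0.77 (unadjusted p 0.0149 and 0.0904). Aagab, which helps assemble clathrin adaptors, had 55.2, 61.5 and 63.3 at ZT9 and 130, 76.3 and 83.2 at ZT13, and its log2 fold change of 0.66 became 0.38 (unadjusted p 0.0192 and 0.124). Kcnj6, which encodes the GIRK2 potassium channel subunit, had 49.1, 44.7 and 51.4 at ZT9 for its single exon 3 and 111, 50.8 and 69.3 at ZT13. One ZT13 sample lay inside the range of ZT9, and the log2 fold change of 0.62 became 0.27 (unadjusted p 0.0250 and 0.253). Cep164 exon 8, from a gene of the distal appendages of centrioles, went from a log2 fold change of 1.43 to 0.88, and Enah, an actin regulator whose junction has 1 end at an exon end, from 1.18 to 0.68. A Gm26917 junction (chromosome 17, 39845055 to 39845215) went from 1.55 to 0.69, and its groups overlapped. Adjusted p-values of the 10 were between 0.405 and 0.493 from edgeR, and 8 of the 10 had groups that did not overlap. All 10 were higher at ZT13 without the library as well, by log2 fold changes between 0.27 and 1.10.

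**Figure D2:**
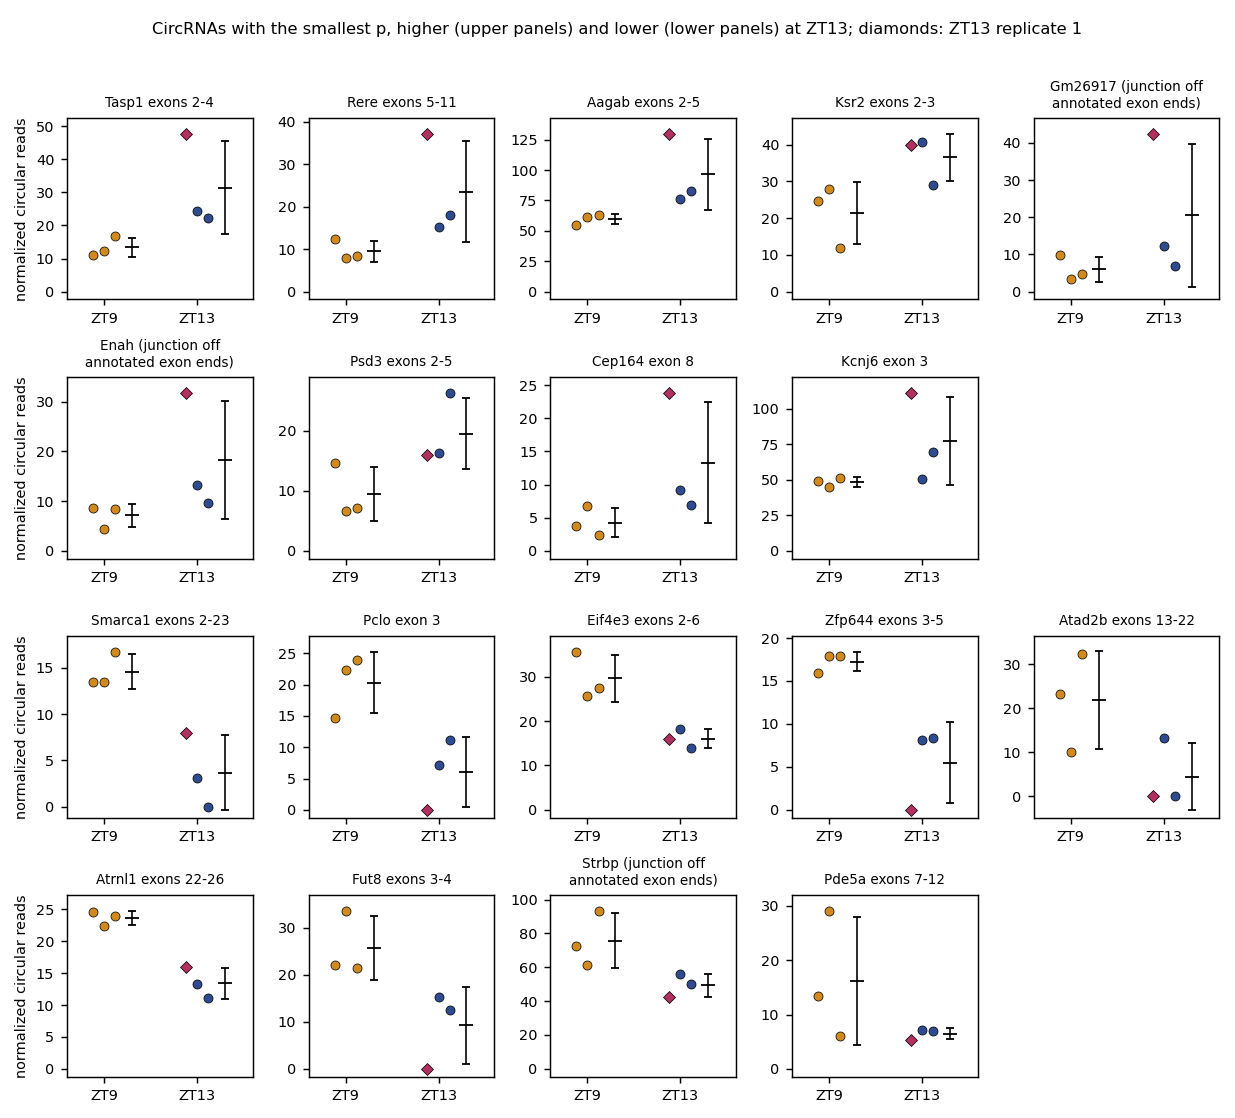
Normalized circular reads (y axis, 1 panel per circRNA) of 9 of the circRNAs with the smallest p that were higher at ZT13 (upper panels) and 9 that were lower (lower panels), with 1 point per sample, diamonds for ZT13 replicate 1 and bars for mean and SD of 3 samples. In the Tasp1 panel ZT13 replicate 1 is at 47.7 and the other ZT13 samples are at 24.4 and 22.2, and in the Smarca1 panel all ZT13 samples are at or below 7.96.

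In Bckdhb, loops of one gene stood on opposite sides. Of 94 host genes with several tested loops, 239 in all, 47 had all loops on the same side of 0 and 47 had loops on both sides. The Bckdhb loops had an unadjusted p under 0.05 in both directions, and Atrnl1, Gm26917, Rere and Tasp1 each had at least 2 such loops in one direction. These hosts were singled out after their values were seen, so the shares below carry no test.

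Bckdhb encodes a subunit of the dehydrogenase that degrades branched-chain amino acids. Its loops share their end at exon 8 and start at exon 2 (chromosome 9, 83952524 to 84012619, 755 nt) or at exon 4 (83988776 to 84012619, 608 nt). Counts of the longer loop were 21, 10 and 9 at ZT9 and 4, 6 and 2 at ZT13, and those of the shorter loop were 7, 14 and 12 at ZT9 and 14, 20 and 12 at ZT13. The longer loop had a log2 fold change of -1.41 (unadjusted p 0.0250), which was -1.76 without ZT13 replicate 1 (unadjusted p 0.0110), and the shorter had 0.82 (unadjusted p 0.0257), which was 0.50 (unadjusted p 0.156). The longer loop made up 75% (95% Wilson interval 56.6 to 87.3), 41.7% (24.5 to 61.2) and 42.9% (24.5 to 63.5) of the pair at ZT9, and 22.2% (9.0 to 45.2), 23.1% (11.0 to 42.1) and 14.3% (4.01 to 39.9) at ZT13. The samples did not overlap. The intervals of ZT9 replicates 2 and 3 overlapped those of ZT13, and that of ZT9 replicate 1 did not, on between 14 and 28 reads each. As a ratio within a library, this share does not depend on how libraries were scaled. Its means were 53.2 ± 18.9% at ZT9 and 19.9 ± 4.85% at ZT13 (SD, n = 3 each). Intervals and floors here cover counting error only.

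The junctions of these loops, and of leading loops of Tasp1 and Smarca1, are shown because they are what identifies each loop. Small letters give the last 15 bases of the last exon of the loop, and capitals give the first 15 bases of its first exon, to which that end is joined backwards.
Bckdhb exons 2-8: gatacagtttgcaagGGCAAACTCAGAAGA
Bckdhb exons 4-8: gatacagtttgcaagGAAAAGATAGAGTGT
Tasp1 exons 2-4: ctggtggaacttgagGTTGACTCCCTTTGC
Smarca1 exons 2-23: actaaaactccaatgAAAATCACTTCTCCA
The Bckdhb junctions share their small letters and differ in capitals.

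**Figure D3:**
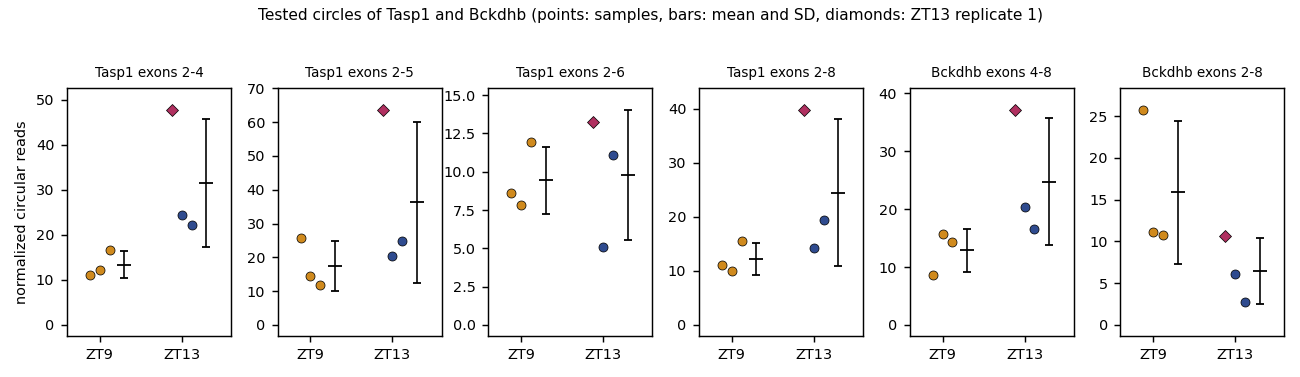
Normalized circular reads (y axis) of the tested loops of Tasp1 and Bckdhb, 1 panel per loop, with 1 point per sample, diamonds for ZT13 replicate 1 and bars for mean and SD of 3 samples. The Tasp1 loop of exons 2-4 is between 11.0 and 16.7 at ZT9 and between 22.2 and 47.7 at ZT13, and the Bckdhb loops stand on opposite sides.

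In Tasp1, Rere and Atrnl1 several loops stood on the same side, with exceptions in Tasp1 and Rere. Beside the leading Tasp1 loop, exons 2 to 5 had counts of 21, 13 and 10 at ZT9 and 24, 20 and 18 at ZT13, with a log2 fold change of 0.89 (unadjusted p 0.0316) that was 0.34 without ZT13 replicate 1. Tasp1 exons 2 to 8 had 0.84, or 0.41 without the library (unadjusted p 0.0511 and 0.301), and exons 2 to 6 had -0.05. Rere exons 4 to 11 had counts of 14, 11 and 16 at ZT9 and 21, 17 and 18 at ZT13, with 0.85 (unadjusted p 0.0335) and 0.33 without the library, while 2 of the 6 tested Rere loops were lower, exons 2 to 4 at -0.67 and exons 4 to 7 at -0.17. Both had no read in ZT13 replicate 1, and without it they were at -0.38 and 0.15. The Atrnl1 loop of exons 20 to 26 had counts of 7, 11 and 10 at ZT9 and of 0, 7 and 0 at ZT13 (log2 fold change -1.75, and -1.45 without the library, unadjusted p 0.0288 and 0.0542). Atrnl1 exons 22 to 25 were nearly level at -0.02, and at 0.30 without the library.

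Summed over all loops of a host gene, Gm26917 rose and no other of the 618 host genes passed the test. Its count rose from 55, 28 and 25 circular reads at ZT9 to 220, 240 and 152 at ZT13, or from 43.0 ± 22.0 to 378 ± 258 normalized reads (SD, n = 3 each). The groups were far apart, and the log2 fold change was 3.10 with a standard error of 0.66 and an adjusted p of 0.0473 from edgeR. Gm26917 is a long noncoding gene annotated on chromosome 17 at a copy of the ribosomal RNA repeat, and its circular reads are described with its junctions further on. The call did not hold without ZT13 replicate 1 (log2 fold change 2.40, adjusted p 0.550), without any single ZT9 replicate (log2 fold changes of 3.53, 2.83 and 2.79), or with DESeq2 (3.10, adjusted p 0.271). It was also lost with the replicate number as a block (3.11, adjusted p 0.0798) and with DESeq2's size factors (3.09, adjusted p 0.0516). It held without ZT13 replicate 2 (adjusted p 0.0340) and without ZT13 replicate 3 (adjusted p 0.0328).

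With edgeR, 1 of 618 host genes (0.162%) was past the adjusted threshold, and 46 (7.44%) had an unadjusted p under 0.05, with 17 (2.75%) higher and 29 (4.69%) lower. Other scalings left this split much the same, with 17 higher and 28 lower under scaling to total reads and 17 and 31 under DESeq2's size factors. In 31 hosts (5.02%) all ZT13 samples were above ZT9 and in 44 (7.12%) all were below. DESeq2 gave 0 adjusted calls and 100 of 2362 (4.23%) unadjusted ones. With only the 6 samples of ZT9 and ZT13 in the edgeR fit, 15 of 388 host genes had an unadjusted p under 0.05, 9 higher and 6 lower. Its 1 adjusted call was Gm26917. Without ZT13 replicate 1, edgeR gave 0 of 678 (0.0%), with 38 (5.6%) at an unadjusted p under 0.05, of which 17 (2.51%) were higher and 21 (3.1%) lower. DESeq2 without that library gave 0 adjusted calls and 66 unadjusted ones. Shared by both lists were 22 hosts, 47.8% of the 46 and 57.9% of the 38, with 7 higher and 15 lower. Of the 29 lower hosts, 16 (55.2%) had no circular read in ZT13 replicate 1, against 27.5% of all hosts tested, and 8 of the 16 kept an unadjusted p under 0.05 without it. Without ZT13 replicate 2 there were 5 adjusted calls from edgeR, namely Gm26917, Tasp1 (log2 fold change 1.15, adjusted p 0.0456), Atad2b (-2.91, 0.0347), Mpp6 (-1.74, 0.0456) and the host of Cdr1as.

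Tasp1 was the next host among those higher. It had 57, 47 and 66 circular reads at ZT9 and 73, 99 and 66 at ZT13, which in normalized reads are 67.0 ± 12.6 and 139 ± 73.4 (SD, n = 3 each). No ZT13 sample was as low as ZT9 after scaling, and the log2 fold change of 0.99 (SE 0.26, unadjusted p 0.000707, adjusted p 0.218 from edgeR) was 0.51 without ZT13 replicate 1 (unadjusted p 0.0153). Aagab had 59.9 ± 3.44 and 106 ± 38.9 normalized reads, with a log2 fold change of 0.75, or 0.45 without the library (unadjusted p 0.00469 and 0.0499). Ptms, the gene of the nuclear protein parathymosin, had 57.2, 42.8 and 15.2 at ZT9 and 298, 65.8 and 51.0 at ZT13, and its log2 fold change of 1.64 became 0.61 (unadjusted p 0.00584 and 0.207). ZT13 replicate 1 alone was far from the rest there, and the groups overlapped. Oxr1, an oxidation resistance gene, overlapped too, with 17.4, 12.4 and 19.9 at ZT9 and 55.2, 36.4 and 18.4 at ZT13 (log2 fold change 1.04, and 0.75 without the library).

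Rims2 and Ano4 were lower with reads in every library. Rims2 is a RIM scaffold that docks synaptic vesicles at the active zone, and its loops had 77.1, 81.0 and 84.2 normalized reads at ZT9 and 39.9, 62.8 and 52.5 at ZT13. The groups did not overlap, and the log2 fold change was -0.59 and -0.50 without ZT13 replicate 1 (unadjusted p 0.0147 and 0.0304). Ano4, a membrane protein of the anoctamin family, had 16.2, 14.6 and 14.0 at ZT9 and 12.3, 6.07 and 4.25 at ZT13, with -1.16 and -1.50 without the library (unadjusted p 0.0156 and 0.00331). The other 3 named lower hosts had no read in ZT13 replicate 1. Rngtt, the enzyme that caps messenger RNA, had counts of 14, 11 and 12 at ZT9 and 0, 5 and 4 at ZT13, and Odf2, a protein of centriole appendages, had 4, 14 and 15 and then 0, 4 and 3. Their log2 fold changes were -1.72 and -1.89, and -1.46 and -1.63 without the library. Mpp6, a scaffold of the MAGUK family, had 37, 34 and 38 and then 0, 33 and 14, with -0.95 and -0.66. Pknox2, a homeobox gene, had counts of 4, 10 and 12 at ZT9 and no read at ZT13, and passed only without a filter on low counts (adjusted p 0.00832 from edgeR, against 0.242 with it).

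Most of the Gm26917 reads at ZT13 crossed a single junction (chromosome 17, 39844698 to 39844867), which had no read at ZT9. It had 0, 0 and 0 circular reads at ZT9 and 183, 187 and 120 at ZT13, at least 79.3-fold more after scaling, with a floor of 3 reads per library. ZT13 replicate 1 was the highest after scaling, and without it it was at least 50.4-fold. As a single circRNA it had an unadjusted p of 0.00113 and an adjusted p of 0.305 from edgeR. Neither end lies at an annotated exon end, the span is 170 nt, and reads from the many copies of the ribosomal repeat make its position uncertain. The other Gm26917 junctions gave 55, 28 and 25 reads at ZT9 and 37, 53 and 32 at ZT13, or 0.339%, 0.157% and 0.138% and then 0.647%, 0.256% and 0.218% of the reads kept.

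The junction was present or absent by library across the series. It was found in 14 of 36 libraries and was at 0 in 22. In the hippocampus it was in 8 of 18 libraries with between 120 and 194 reads, and in the frontal cortex in 6 of 18 with between 75 and 178. In the frontal cortex it had 0, 79 and 0 reads at ZT9 and 0, 139 and 115 at ZT13. Nell2, which encodes a secreted glycoprotein of neurons, had a junction of the same kind. Its loop of exons 14 to 16 had 0, 0 and 286 reads at ZT9 and 0, 0 and 287 at ZT13, and was found in 11 of 36 libraries. The libraries with and without it were in both groups, so it gives no difference between ZT9 and ZT13.

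**Figure D4:**
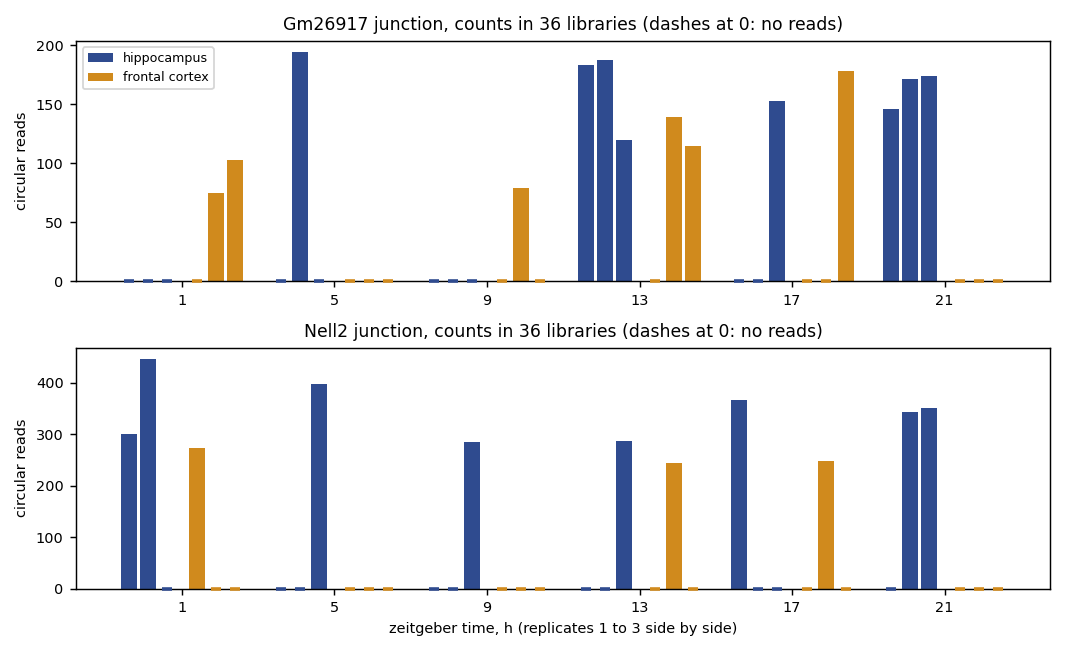
Circular reads per library (y axis) of the Gm26917 junction at 39844698 to 39844867 and of the Nell2 loop of exons 14-16 at each time point (x axis, hours ZT), with hippocampus libraries to the left and frontal cortex libraries to the right of each tick. Each junction is at 0 in most libraries, and in the others it lies between 75 and 194 reads for Gm26917 and between 244 and 446 for Nell2.

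Few loops were found in all replicates of one time point and in none of the other, and those had few reads. Of the 5505 circRNAs kept, 76 (1.38%) were in all ZT9 replicates and no ZT13 replicate, and 18 (0.327%) the other way round, with a median of 8 reads in both. Without ZT13 replicate 1 these became 84 (1.53%) and 149 (2.71%). Those counts are not comparable with each other, since ZT13 then has 2 replicates to fill and ZT9 has 3. Dnm3 exons 3 to 4, from a dynamin gene, led those of ZT9 with 4, 12 and 6 reads, at least 1.68-fold above a floor of 3 reads per library at ZT13. Tbck exons 4 to 25 followed with 7, 4 and 4 reads, Rngtt exons 2 to 6 with 3, 5 and 6, a loop without host on chromosome 13 (83872656 to 83884235) with 3, 3 and 7, and Smad4 exons 5 to 8 with 3, 5 and 5. Their bounds were between 1.00-fold and 1.18-fold. At ZT13, beside Gm26917, Specc1 exons 7 to 10 had 2, 4 and 5 reads, Wscd2 had 4, 3 and 4, Oxr1 exon 2 had 4, 2 and 4, and Cacna1b exons 8 to 9 had 2, 3 and 5. Cacna1b is the pore of the N-type calcium channel, and the bounds of these 4 were between 1.44-fold and 1.81-fold. Over all time points the Dnm3 loop was found in 13 of 18 hippocampus libraries, that of Tbck in 12, that of Specc1 in 13 and that of Cacna1b in 12.

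Of the loops with the most reads, none had an unadjusted p under 0.05, Cdr1as aside. Tulp4 (chromosome 17, 6137211 to 6139156) had 253, 307 and 284 normalized reads at ZT9 and 122, 329 and 254 at ZT13. ZT13 replicate 1 was far below the others, and the log2 fold change of -0.25 (unadjusted p 0.309) turned to 0.03 without it. Gigyf2 exons 4 to 8, from a repressor of translation, had 238 ± 3.58 and 249 ± 46.5 (SD, n = 3 each) and a log2 fold change of 0.07 (unadjusted p 0.696). Slc8a1 exon 2, from the sodium-calcium exchanger, had 151 ± 25.2 and 134 ± 45.9, and its -0.16 turned to 0.01 without the library. Ankib1 exons 2 to 5, from a ubiquitin ligase, were at -0.14, Tcf20 exon 2, from a transcriptional coregulator, at 0.15, and Dtnb exons 5 to 8, from beta-dystrobrevin, at -0.35 (unadjusted p 0.125). A loop without host on the unplaced sequence JH584304.1 (25369 to 60857) had counts of 56, 79 and 89 at ZT9 and of 0, 230 and 85 at ZT13, and its log2 fold change of 0.48 became 0.99 without ZT13 replicate 1 (unadjusted p 0.499 and 0.0531). The log2 fold change of the Nell2 loop, whose reads lie in few libraries, ran from -9.80 to 10.04 as single samples were left out. Cdr1as, for reference, was at -0.54 and at -0.29 without that library.

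Among all 582 circRNAs 335 had a log2 fold change below 0, and among all 618 host genes 320 had, with a median of -0.03, or 0.01 without ZT13 replicate 1. Of 16 tested circRNAs from genes of the presynaptic release machinery 12 were lower at ZT13 and 4 higher, with a median log2 fold change of -0.16, against -0.07 over all 582, and -0.02 without ZT13 replicate 1. An unadjusted p under 0.05 was found for 2 (12.5%), both lower, in Pclo and Rims2, against 9.97% of all circRNAs. The Rims2 loop of exons 21 to 22 had counts of 8, 22 and 15 at ZT9 and of 0, 11 and 6 at ZT13 (log2 fold change -1.14, and -0.84 without the library, unadjusted p 0.0355 and 0.0745). That of exons 20 to 22 had 29, 33 and 26 and then 6, 32 and 26 (-0.20), and Rims1 exons 25 to 27 had 62, 47 and 45 and then 25, 68 and 53 (0.20, unadjusted p 0.418). Summed by host, 10 of 12 presynaptic genes were below 0, with a median of -0.20, which was -0.22 without the library. Pclo as a host had counts of 16, 20 and 25 and then 2, 13 and 8 (log2 fold change -1.09 and -0.97 without the library, unadjusted p 0.0172 and 0.0342).

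Postsynaptic scaffolds, with 12 tested circRNAs, had 1 at an unadjusted p under 0.05 (8.33%, against 9.97% of all circRNAs), the Psd3 loop, which was higher. Of the 12, 8 were below 0 (median -0.10, and -0.15 without ZT13 replicate 1), against 335 of all 582. Summed by host, 8 of 13 were above 0, against 298 of all 618, with a median of 0.08, which was 0.02 without ZT13 replicate 1. Psd3 as a host had 31.6 ± 6.16 normalized reads at ZT9 and 46.6 ± 1.42 at ZT13 (SD, n = 3 each), with a log2 fold change of 0.56 and 0.54 without ZT13 replicate 1. None of the 4 circRNAs of glutamate receptor genes had an unadjusted p under 0.05 (median -0.05, and 0.20 without the library), and Grin2b exons 6 to 10, from an NMDA receptor subunit, had counts of 20, 10 and 12 at ZT9 and 3, 10 and 8 at ZT13 (-0.72, unadjusted p 0.0686). Synaptic adhesion genes had 0 of 11 at an unadjusted p under 0.05 from edgeR and a median of -0.26, with 8 below 0. Without ZT13 replicate 1 that median was -0.12. Summed by host, with all samples, 9 of 14 were above 0, with a median of 0.08. Ion channel and calcium genes had 17 tested circRNAs with a median of 0.09, or 0.01 without the library. Of these, 1 was lower at an unadjusted p under 0.05 (5.88%), Kcnt2 exons 4 to 13, with counts of 20, 32 and 29 and then 0, 19 and 18 (-0.88, and -0.57 without the library). Kcnt2 is one of the genes without any circular read in ZT13 replicate 1. The list does not hold Kcnj6, whose loop was higher.

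Kinases, phosphatases and cyclic nucleotide signalling had 23 tested circRNAs with a median of -0.08, or -0.17 without ZT13 replicate 1. At an unadjusted p under 0.05, 1 was higher and 1 lower (8.7%, against 9.97% of all 582 circRNAs). Pde5a, whose loop was lower, is not in this list. Hipk3 exon 2, from a host well studied for its loops, had counts of 54, 59 and 62 at ZT9 and 10, 55 and 45 at ZT13 (-0.46, and -0.25 without the library, unadjusted p 0.0950 and 0.280). Chromatin regulators had 15 with a median of -0.10, and of -0.003 without the library, and 1 higher and 1 lower at an unadjusted p under 0.05 (13.3%). Smarca1, whose loop was lower, is not in this list. The Phf20 loop of exons 2 to 4 was higher (1.36, and 1.16 without the library, unadjusted p 0.0453 and 0.0987), and the Arid1a loop of exons 2 to 4 was lower (-0.76 and -0.60, unadjusted p 0.0424 and 0.0961). Phf20, a reader of histone methylation, was also higher as a host, with counts of 8, 9 and 16 and then 7, 25 and 19 (0.95, and 0.97 without ZT13 replicate 1). Kmt2c, a histone methyltransferase, was lower as a host, with 3, 11 and 5 and then 0, 3 and 0 (-2.27, and -2.04 without the library, unadjusted p 0.0196 and 0.0341). The ubiquitin system had 13 tested circRNAs, 9 below 0, with a median of -0.26, or -0.12 without ZT13 replicate 1, and none at an unadjusted p under 0.05. Ube2k exons 2 to 6, from a ubiquitin-conjugating enzyme, had counts of 20, 17 and 10 and then 0, 12 and 10 (-0.84, and -0.54 without the library, unadjusted p 0.0755 and 0.158). Splicing and RNA editing genes had 6, with 4 above 0 and a median of 0.13, or 0.20 without the library. Hosts well studied for their loops had 44, with a median of -0.02 and 1 lower at an unadjusted p under 0.05 (2.27%), the Rims2 loop. The ribosomal repeat list had 5 (median 0.80, and 0.27 without the library). Of these, 2 Gm26917 junctions were higher at an unadjusted p under 0.05 (40.0%, against 3.95% higher among all circRNAs). Without the library, 1 of the 2 junctions (39845055 to 39845215) no longer had such a p (unadjusted p 0.275).

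Clock genes were nearly absent from the circular reads. Of 27 genes of the clock list 6 had kept loops and 0 had a tested circRNA, and as a host only Npas2 was tested, with counts of 4, 0 and 4 at ZT9 and 0, 4 and 6 at ZT13 (log2 fold change 0.60, unadjusted p 0.480). Among activity-regulated genes 1 circRNA was tested, Homer1 exons 2 to 5, from a postsynaptic scaffold with an activity-induced short form. It had counts of 16, 20 and 19 at ZT9 and of 0, 16 and 22 at ZT13, and its log2 fold change of -0.28 became 0.04 without ZT13 replicate 1. Cdk8, a kinase of the Mediator complex, showed the opposite as a host, with counts of 19, 19 and 14 and then 0, 38 and 28, and 0.60 became 0.91 (unadjusted p 0.146 and 0.00260). Cdk8 was picked after its values were seen.

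The longest loops made up more of the lower circRNAs. The median spliced length was 767.5 nt for 32 lower loops, 462 nt for 19 higher ones and 566.5 nt for the other 470 whose ends lie at exon ends. Of the 130 longest, between 866 and 5866 nt, 15 were lower and 1 higher at an unadjusted p under 0.05. Of the 131 shortest, between 60 and 394 nt, 6 were lower and 7 higher. The median log2 fold change was -0.18 among the longest and -0.04 among the shortest, and -0.11 and 0.03 without ZT13 replicate 1. Smarca1 with 2946 nt, Zfp644 with 3539 nt and Pclo exon 3 with 1392 nt are among the long ones, and Cdr1as with 2927 nt is counted there too. This pattern was noticed in the data and was not tested.

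For several named loops ZT9 or ZT13 stood at the edge of the range over the day. The change from ZT13 to ZT17 shares the ZT13 samples, and that from ZT5 to ZT9 shares the ZT9 samples, so neither is a separate observation. Atrnl1 exons 22 to 26 went from -0.85 to 1.09 in the next step (unadjusted p 0.00112), and Eif4e3 from -0.86 to 0.77 (unadjusted p 0.00905). Tasp1 exons 2 to 4 had 25.4 ± 3.62 normalized reads at ZT5, 20.8 ± 4.84 at ZT17, 20.8 ± 3.53 at ZT21 (SD, n = 3 each) and 15.2 ± 3.18 at ZT1. ZT9 was the lowest of the 6 means, and ZT13 was the highest with ZT13 replicate 1 but not without it (23.3), with -0.93 from ZT5 to ZT9 (unadjusted p 0.00901). Pclo exon 3 was at 8.03 ± 2.57 at ZT5, near its ZT13 level, with 1.30 from ZT5 to ZT9 (unadjusted p 0.00517). From edgeR, 0 circRNAs (0.0%) passed the adjusted threshold in either step, with 51 (8.76%) at an unadjusted p under 0.05 from ZT13 to ZT17 and 24 (4.12%) from ZT5 to ZT9.

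The change from ZT9 to ZT13 was compared with that of the frontal cortex in one fit of both tissues. In the cortex Tasp1 exons 2 to 4 had counts of 20, 18 and 19 at ZT9 and 16, 15 and 16 at ZT13, and Kcnj6 exon 3 had 38, 34 and 27 and then 31, 24 and 21. The third cortex library of ZT9 had 8107 circular reads in all, against between 14379 and 20536 in the other cortex libraries of both times. The cortex log2 fold changes were -0.49 for Tasp1 and -0.55 for Kcnj6 (unadjusted p 0.154 and 0.0563), and what they are without that library was not tested. The differences between the tissues were 1.15 for Kcnj6 (unadjusted p 0.00507) and 1.59 for Tasp1 (unadjusted p 0.00232, adjusted p 0.587 from edgeR). As given above, both loops were nearer to level in the hippocampus without ZT13 replicate 1, with Kcnj6 at 0.27. For Smarca1 the difference was -1.92 (unadjusted p 0.0202). The smallest p for this difference among the named loops was that of a Ptms junction (chromosome 6, 124914408 to 124914710, unadjusted p 0.000274, adjusted p 0.195 from edgeR). It had counts of 28, 23 and 0 and then 48, 37 and 14 in the hippocampus, and of 13, 21 and 65 and then 0, 0 and 0 in the cortex. With edgeR, 0 of 710 circRNAs (0.0%) passed the adjusted threshold for this difference and 53 (7.46%) had an unadjusted p under 0.05. That count was 43 without hippocampus ZT13 replicate 1, 84 without hippocampus ZT13 replicate 2, and 82 and 87 without frontal cortex ZT9 replicate 1 and replicate 2. DESeq2 was not run for it. Without hippocampus ZT13 replicate 2, 1 passed, Atad2b exons 13 to 22 (adjusted p 0.0160 from edgeR). The split of the unadjusted calls was 18 positive and 35 negative, 18 and 22 without frontal cortex ZT9 replicate 3, and 22 and 23 under scaling to total reads, where the median over all circRNAs moved from -0.17 to -0.03. Of the named loops, 7 of the 10 higher and 6 of the 10 lower had an unadjusted p under 0.05 for the difference between tissues, which shares the 6 hippocampus samples that chose them and so is no separate observation.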

How the data were processed

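For every circRNA the authors deposited a count of circular reads in each sample, from CIRI2 calls of head-to-tail junctions after alignment to GRCm38 with BWA. The values are whole numbers, and the smallest count above 0 is 2. For the hippocampus 1 further column of per-sample values is not used here. The 6 samples compared were H15 and H19 by their labels, ZT9 and ZT13.

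A circRNA was kept when 2 or more replicates of a time point held it. Tests used edgeR 4.0.16 in R 4.3.3 (TMM, default filter on low counts, quasi-likelihood test, Benjamini-Hochberg, threshold 0.05) with all 18 hippocampus samples in one fit, or all 36 for the tissue difference. DESeq2 1.42.0 was run beside it. Normalized reads are TMM-scaled counts, set to a mean total of 12544 for tested circRNAs and of 16797 for tested host genes. Exact permutation tests (two-sided) compared total circular reads and the number of circRNAs found, where 3 against 3 samples allow no p below 0.1. The number found was 3461 ± 165 at ZT9 and 2835 ± 1250 at ZT13 (SD), a change of -18.1% (exact permutation test, p = 0.6). Thinned to 6754 reads it was 2515 ± 40.4 and 2178 ± 608, but these are not on one rule, since thinning leaves loops with a single read and ZT13 replicate 1, which was not thinned, has none. Hosts and exons came from GENCODE vM21, and junction sequences from its transcripts. The tests were tested on simulated data. Python 3.11.15, numpy 2.4.6, pandas 2.3.3, scipy 1.17.1 and matplotlib 3.10.9 were used.

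Named are, Cdr1as aside and among those with reads in at least 4 of the 6 samples, the 10 circRNAs with the smallest unadjusted p in each direction and 5 host genes in each direction. Also named are the 8 circRNAs with the most reads, those past the adjusted threshold in any fit, and the 5 loops with the most reads in each direction that were found in all replicates of one time point and none of the other. Other loops of a named host may be given. Some features that this rule or a list takes in are not reported here. Members, lists and this rule were chosen with earlier results of these data known.

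Scaling used circular reads only, so a shift common to all loops would not be seen. The floor of 3 reads was 0.0185%, 0.0168% and 0.0166% of the reads kept at ZT9 and 0.0524%, 0.0145% and 0.0204% at ZT13.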

Additional observations from a re-analysis of the deposited data

How the results depend on the processing

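With edgeR the count of circRNAs past the adjusted threshold was 0 of 582 and became 3 without a filter on low counts (a Gm26917 junction, Cdr1as and a loop without host on chromosome 8), 1 with the 6 samples fitted alone (Gm26917), 1 with DESeq2 without its rule on outlying counts (Gm26917, a setting chosen after seeing the data), and between 0 and 2 as single samples were left out. For host genes the 1 call became 0 with DESeq2's size factors, with DESeq2, with the replicate number as a block, with all circRNAs listed, and, both chosen after seeing the data, with DESeq2 without ZT13 replicate 1 and with DESeq2 without its rule on outlying counts. It became 4 without a filter (Gm26917, Pknox2, Ptms and the host of Cdr1as), and between 0 and 5 as single samples were left out. The tissue difference went from 0 to 6 without a filter (Nell2, Gm26917, CT010467.1, both Ptms junctions and Cdr1as), and between 0 and 1 as single samples were left out. Total circular reads changed by -20.9%, and by between -41.1% and 2.10% as single samples were left out, the reversal to 2.10% being without ZT13 replicate 1. The number of circRNAs found changed by between -34.5% and 1.25%, again reversed to 1.25% without that replicate. In each case the cause was not tested. The settings were followed for 22 circRNAs, the 10 named in each direction for a small p in these samples, the Gm26917 junction at 39844698 and the chromosome 8 loop. Of their 343 values, 5 came past the threshold, which none passed before, and 0 reversed. Prdm2, CT010467.1, Nell2, both Ptms junctions and Cdr1as also had a call in some fit but are not among the 22. The log2 fold change of CT010467.1 ran from -0.20 to 0.16 as single samples were left out. The 8 with the most reads are not among the 22 either. The log2 fold change of 6 of the 8, Tulp4, Gigyf2, Slc8a1, Nell2, Tcf20 and the loop on JH584304.1, changed sign as single samples were left out. Of 177 values for the named host genes, 163 kept direction and side of the threshold, 5 came past it, 9 no longer passed and 0 reversed. The replicate numbers may or may not pair samples. Deviations of same-number samples had r of 0.131, 0.0652 and 0.0934 across 582 circRNAs, which are not independent replicates. Those of samples with different numbers had r between -0.170 and 0.0697, so the ranges overlapped. With the number as a block 56 circRNAs had an unadjusted p under 0.05 against 58. Depth limits every loop with few reads, most of all in ZT13 replicate 1, where 1 read is 2.65 normalized reads against between 1.02 and 1.39 in the others.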
